A study of Gallus gallus with 12 samples.

Results

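The 35 genes described here act in cell division and were taken by name from the 23726 genes of the count matrices of the embryonic chick retina. Every one of the 35 is present in the matrices. They comprise 11 genes of DNA replication and S-phase entry (MCM2, MCM3, MCM4, MCM5, MCM6, PCNA, RRM1, RRM2, TYMS, CCNE2 and E2F1), 18 genes of mitosis (MKI67, TOP2A, CDK1, UBE2C, CCNB2, CCNA2, CENPF, CENPE, NUSAP1, TPX2, CDCA3, KIF2C, KIF11, KIF20A, AURKA, BUB1, PLK1 and CDC20) and 6 others (HMGB2, SMC2, SMC4, CCND1, CDKN1C and GMNN). A dividing cell licenses its replication origins in G1, copies its DNA in S phase, and builds and then dismantles the mitotic spindle, and most genes of each step are transcribed mainly in the phase that needs them. In the vertebrate retina, progenitors divide while they express proneural transcription factors and Notch ligands, and neurons leave the cycle for good as they are born. Müller glia, the last class to leave the progenitor pool, keep some progenitor genes, and in the chick they can re-enter the cycle after injury.

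The retinas came from chicken embryos of specific-pathogen-free eggs at embryonic day 12 (E12) and embryonic day 18 (E18), with the pigment epithelium and the pecten removed before papain dissociation. Each stage has 4 whole-retina libraries made with a droplet-based kit that counts the 3′ ends of transcripts by unique molecular identifiers (UMIs). No treatment or genotype separated the stages, and the labels name no strain. The other 4 of the 12 libraries, from E16 ganglion cells enriched with an antibody to Thy-1, were not used here. The labels do not say whether the libraries of a stage came from separate embryos, so p-values below measure the spread between libraries, which may be technical.

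The E12 libraries held 14066 to 14225 barcodes and 25226502 to 27655687 UMIs each, and the E18 libraries 7259 to 7683 barcodes and 16436527 to 16967777 UMIs. Median UMIs per barcode ran from 1569 to 1745 at E12 and from 1617 to 1681 at E18. Of the barcodes, 6413 at E12 and 1804 at E18 were scored as likely doublets. All barcodes, the likely doublets among them, were clustered without 283 cell cycle genes, the 35 included. The likely doublets were then left out of the sums per class and per state. Between libraries of a stage, 1665 barcode sequences at E12 and 450 at E18 occurred more than once. HINTW, a gene of the female W chromosome, had 61515 UMIs at E12 and 0 at E18, so the sex composition differed with the stage.

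The first question was how much of the division programme remained in the retina at E18. Over whole libraries, 26 of the 35 genes fell from E12 to E18 and none rose (edgeR quasi-likelihood test, adjusted p under 0.05 and at least 2-fold), where 8.47% of all 14314 genes tested fell and 17.0% rose. DESeq2 gave the same counts of 26 and 0, and at an unadjusted p no gene of the 35 was higher either, since every difference was negative. All 18 mitosis genes fell, with a median of -4.31 on the log2 scale, against 4 of 11 S-phase genes, with a median of -0.88, and 4 of 6 others, with a median of -1.46. The median over all genes was 0.00014. The E12 and E18 libraries overlapped for PCNA and TYMS. Such sums cannot tell fewer cells of a type from less RNA per cell. Scaling by library totals instead of TMM moved the median of all genes by 0.21, and 23 of the 35 were then called lower. Levels below are UMIs of a gene relative to all UMIs of the library, in CPM, given for libraries 1 to 4 of each stage, and fold changes are E18 over E12.

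**Figure D1:**
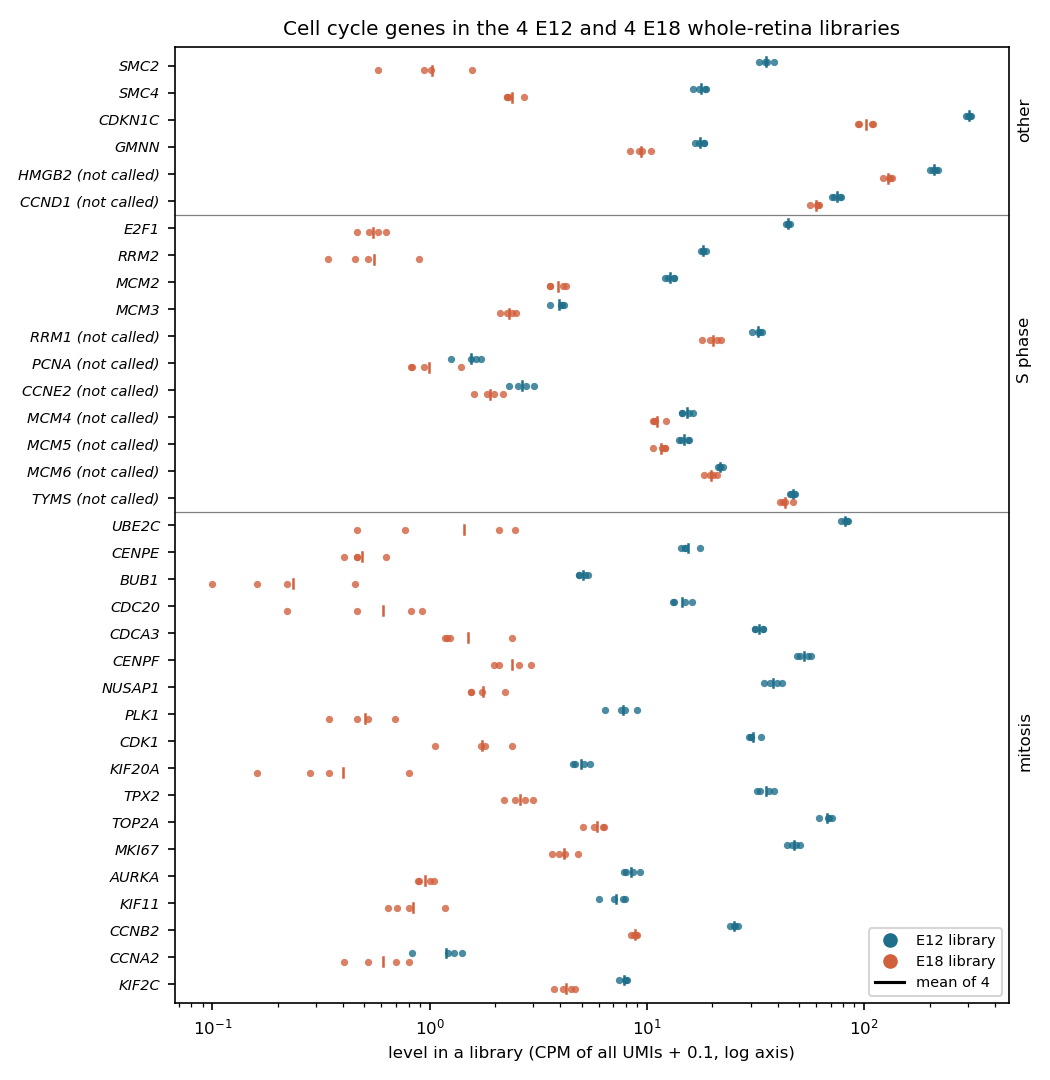
Level of each of the 35 genes in every whole-retina library, in CPM plus 0.1 on a log axis, with E12 and E18 libraries as points and the mean of each stage as a tick. UBE2C and E2F1 fell from 81.8 and 44.6 CPM to 1.34 and 0.449 CPM, and the E12 and E18 points of TYMS and PCNA overlap.

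The genes of replication licensing and of the fork split into a few that fell and a larger set that changed little. MCM2, a subunit of the MCM helicase that is loaded at origins, had 13.3, 11.97, 13.2 and 12.4 CPM at E12 and 3.49, 4.15, 3.47 and 4.01 CPM at E18, and it fell by 1.96 ± 0.084 (log2, SE; adjusted p = 4.01e-12). MCM3, another subunit, had 3.49, 3.91, 3.96 and 4.06 CPM at E12 and 2.16, 2.40, 2.01 and 2.30 CPM at E18, and it fell by 1.006 ± 0.12 (log2, SE; adjusted p = 1.21e-06). The fall of MCM3 was close to the 2-fold limit. It was no longer called with library totals, without the likely doublets, or without E12 library 3 or 4 or E18 library 1 or 3. The remaining helicase subunits did not reach a 2-fold difference: MCM4 went from 15.2 ± 0.872 CPM to 11.05 ± 0.697 CPM (mean ± SD, n = 4), MCM5 from 14.8 ± 0.746 CPM to 11.5 ± 0.653 CPM, and MCM6 from 21.7 ± 0.523 CPM to 19.6 ± 1.195 CPM. PCNA, the sliding clamp of DNA polymerase, was low at both stages, at 1.44 ± 0.203 CPM and 0.897 ± 0.272 CPM, and passed the 2-fold limit only without E18 library 4, at -1.12. GMNN, which encodes geminin, the inhibitor of origin licensing, had 17.2, 18.2, 18.2 and 16.5 CPM at E12 and 8.30, 9.43, 10.3 and 9.13 CPM at E18, and it fell by 1.13 ± 0.067 (log2, SE; adjusted p = 2.81e-10). GMNN was not called with library totals, at -0.92.

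Among the genes of nucleotide synthesis, the subunits of ribonucleotide reductase parted. RRM2, the small subunit that is made in S phase, had 18.6, 18.04, 17.9 and 17.7 CPM at E12 and 0.421, 0.240, 0.791 and 0.354 CPM at E18, and it fell by 5.52 ± 0.14 (log2, SE; adjusted p = 5.87e-15). RRM1, the large subunit, went from 32.4 ± 1.496 CPM to 20.0 ± 1.73 CPM, a difference of -0.91 ± 0.055 (log2, SE) that was under 2-fold. TYMS, thymidylate synthase, stood at 46.8 ± 1.15 CPM and 43.3 ± 2.45 CPM, a difference of -0.32 ± 0.04 (log2, SE) with overlapping libraries.

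The regulators of the G1 to S transition differed in the size of their fall. E2F1, a transcription factor of S-phase genes, had 44.4, 45.6, 43.6 and 44.6 CPM at E12 and 0.481, 0.361, 0.426 and 0.530 CPM at E18, the largest difference of the 35. It fell by 6.82 ± 0.082 (log2, SE; adjusted p = 1.28e-18), which is 113-fold. CDKN1C, the cyclin-dependent kinase inhibitor p57, had 305, 300.0, 295 and 310.0 CPM at E12 and 109, 109.9, 94.1 and 93.9 CPM at E18, and it fell by 1.79 ± 0.048 (log2, SE; adjusted p = 1.45e-14). CCNE2, a cyclin E, went from 2.57 ± 0.303 CPM to 1.80 ± 0.239 CPM, and CCND1, cyclin D1, from 75.0 ± 3.52 CPM to 59.9 ± 2.65 CPM, both under the 2-fold limit.

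Mitotic kinases, cyclins and checkpoint genes fell together. CDK1, the main mitotic kinase, had 33.3, 29.9, 30.1 and 29.5 CPM at E12 and 1.62, 0.962, 1.70 and 2.30 CPM at E18, and it fell by 4.42 ± 0.11 (log2, SE; adjusted p = 6.6e-15). CCNA2, cyclin A2, was low throughout, with 1.11, 1.19, 1.31 and 0.728 CPM at E12 and 0.421, 0.601, 0.304 and 0.707 CPM at E18, and it fell by 1.29 ± 0.28 (log2, SE; adjusted p = 0.000512). CCNB2, cyclin B2, had 26.0, 25.2, 24.0 and 25.05 CPM at E12 and 8.90, 8.35, 8.82 and 8.60 CPM at E18, and it fell by 1.74 ± 0.053 (log2, SE; adjusted p = 5.92e-14). CCNB2 kept more of its E12 level than CDK1, and its 4 E18 libraries lay within 8.35 to 8.90 CPM. AURKA, a kinase of the spindle poles, had 7.73, 9.15, 7.87 and 8.50 CPM at E12 and 0.781, 0.901, 0.791 and 0.943 CPM at E18, and it fell by 3.49 ± 0.13 (log2, SE; adjusted p = 9.62e-13). PLK1, a kinase of mitotic entry and exit, had 7.85, 8.86, 7.49 and 6.28 CPM at E12 and 0.421, 0.361, 0.243 and 0.589 CPM at E18, and it fell by 4.43 ± 0.20 (log2, SE; adjusted p = 1.05e-11). BUB1, a kinase of the spindle checkpoint, had 4.76, 5.28, 5.07 and 4.79 CPM at E12 and 0.120, 0, 0.0608 and 0.354 CPM at E18, which is 9 UMIs over all E18 libraries. It fell by 5.35 ± 0.29 (log2, SE; adjusted p = 7.62e-11), and by 6.44 without E18 library 4. CDCA3, a factor for the breakdown of the mitotic entry inhibitor WEE1, had 34.1, 34.0, 31.3 and 31.2 CPM at E12 and 1.14, 1.08, 1.10 and 2.30 CPM at E18, and it fell by 4.74 ± 0.12 (log2, SE; adjusted p = 5.84e-15). None of these genes had overlapping stages.

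Both genes that trigger anaphase fell. UBE2C, the ubiquitin-conjugating enzyme of the anaphase-promoting complex, had 81.7, 84.4, 82.9 and 78.3 CPM at E12 and 1.98, 0.361, 0.669 and 2.36 CPM at E18. It fell by 6.13 ± 0.16 (log2, SE; adjusted p = 7.27e-15), which is 69.9-fold, and its E18 libraries spread more widely than those at E12. CDC20, an activator of that complex, had 13.2, 14.9, 16.1 and 13.1 CPM at E12 and 0.721, 0.120, 0.365 and 0.825 CPM at E18, and it fell by 5.01 ± 0.20 (log2, SE; adjusted p = 1.86e-12).

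The E18 oligodendrocyte-like cluster, 147 cells that are described below, held part of what remained. Without its barcodes, an alternative chosen after seeing the data, the fold changes of 10 genes were larger by over 1.5 times, at -7.47 for UBE2C, -6.80 for BUB1, -6.43 for SMC2, -6.31 for RRM2, -6.17 for CENPE, -5.96 for PLK1, -5.83 for CDC20, -5.52 for CDCA3, -5.38 for CENPF and -4.79 for KIF20A.

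Genes of mitotic chromosomes ranged from a large fall to a difference under 2-fold. TOP2A, the topoisomerase that untangles sister chromatids, had 71.2, 68.8, 68.1 and 62.0 CPM at E12 and 4.99, 6.25, 6.21 and 5.60 CPM at E18, and it fell by 3.76 ± 0.063 (log2, SE; adjusted p = 4.48e-17). MKI67, a coat protein of mitotic chromosomes and the usual marker of dividing cells, had 50.7, 46.5, 48.3 and 43.97 CPM at E12 and 4.09, 3.55, 3.83 and 4.71 CPM at E18, and it fell by 3.76 ± 0.071 (log2, SE; adjusted p = 1.95e-16). These genes stayed at 3.55 CPM or more in every E18 library. At E18 both also lay in amacrine-like cells, at 9.65 CPM for TOP2A and 9.46 CPM for MKI67, as described below. SMC2, a condensin subunit, had 38.3, 35.5, 34.9 and 32.6 CPM at E12 and 0.842, 0.481, 0.913 and 1.47 CPM at E18, and it fell by 5.45 ± 0.13 (log2, SE; adjusted p = 2.11e-15). SMC2 lies on chromosome Z, and it was lower by a similar amount, at -5.54, when E12 barcodes with a HINTW UMI were left out. SMC4, its partner in condensin, had 18.6, 18.5, 17.3 and 16.1 CPM at E12 and 2.22, 2.16, 2.62 and 2.18 CPM at E18, and it fell by 3.15 ± 0.089 (log2, SE; adjusted p = 2.59e-14). HMGB2, a chromatin protein, went from 210.2 ± 7.66 CPM to 129 ± 5.27 CPM, a difference of -0.91 ± 0.032 (log2, SE) that was under 2-fold although no library overlapped.

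Genes of the kinetochore and spindle fell, KIF2C by much less than the others named here. CENPF, a kinetochore protein, had 57.1, 55.3, 50.7 and 48.8 CPM at E12 and 2.83, 1.98, 1.89 and 2.48 CPM at E18, and it fell by 4.74 ± 0.089 (log2, SE; adjusted p = 1.87e-16). CENPE, a kinetochore motor, had 17.5, 14.9, 14.2 and 14.9 CPM at E12 and 0.361, 0.361, 0.304 and 0.530 CPM at E18, and it fell by 5.49 ± 0.15 (log2, SE; adjusted p = 1.5e-14). NUSAP1, which bundles spindle microtubules, had 39.7, 41.6, 36.6 and 34.5 CPM at E12 and 1.44, 1.44, 1.64 and 2.12 CPM at E18, and it fell by 4.72 ± 0.10 (log2, SE; adjusted p = 9.55e-16). For each of these genes the lowest E12 library was above every E18 library. TPX2, which nucleates spindle microtubules, had 38.5, 36.6, 33.0 and 32.2 CPM at E12 and 2.64, 2.103, 2.37 and 2.89 CPM at E18, and it fell by 4.01 ± 0.092 (log2, SE; adjusted p = 1.99e-15). KIF11, the motor that pushes the spindle poles apart, had 7.81, 7.63, 6.99 and 5.90 CPM at E12 and 0.541, 1.08, 0.608 and 0.707 CPM at E18, and it fell by 3.47 ± 0.18 (log2, SE; adjusted p = 3.67e-11). KIF20A, a motor of cytokinesis, had 5.35, 4.56, 5.03 and 4.48 CPM at E12 and 0.0601, 0.180, 0.243 and 0.707 CPM at E18, and it fell by 4.20 ± 0.27 (log2, SE; adjusted p = 7.14e-10). The stages were again apart for each gene, and without E18 library 4 KIF20A fell by 5.07. KIF2C, a kinesin that removes tubulin at kinetochores, had 7.93, 7.81, 7.99 and 7.32 CPM at E12 and 4.57, 4.03, 3.65 and 4.36 CPM at E18, and it fell by 1.11 ± 0.09 (log2, SE; adjusted p = 1.28e-08), the smallest fall of the 18 mitosis genes. KIF2C was not called with library totals, at -0.90, and 214 of its 277 UMIs at E18 lay in one cluster of photoreceptor-like cells, as described below.

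Other genes of the same steps moved in both directions, where 8.47% of all genes fell and 17.0% rose. Of 49 other replication genes tested, 16 fell and 2 rose, with a median of -0.61. UHRF1, a factor for maintaining DNA methylation at the fork, fell by 2.62 on the log2 scale, HELLS by 1.47 and POLA1, a subunit of DNA polymerase alpha, by 1.15. CHEK1, a checkpoint kinase, rose by 1.80, from 18.6 to 74.8 CPM. Of 73 other mitosis genes tested, 53 fell and 2 rose, with a median of -1.88. MYBL1 fell by 4.46, KIF4A by 3.62 and BIRC5, which encodes survivin, by 2.99, whereas NCAPD2, a condensin subunit, rose by 2.90, from 10.2 to 88.2 CPM. Of 30 G1 regulators and inhibitors, 12 fell and 2 rose. The 2 that rose were CDKN1A, the inhibitor p21, by 3.02, from 27.8 to 262 CPM, and BTG2, an antiproliferative gene, by 1.09, from 153 to 377 CPM, and TFDP2, MYC and CCNG2 fell by 1.58, 1.51 and 1.43.

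Cells with several UMIs of the mitosis genes were then counted, which need not all be dividing. A cell was called mitosis-high when it held at least 3 UMIs summed over the 18 mitosis genes, after thinning every cell to 1000 UMIs. At E12, 4.84% ± 0.195 (SD, n = 4 libraries) of barcodes were mitosis-high, with libraries from 4.59% to 5.03%. At E18 the share was 0.102% ± 0.0277, with libraries from 0.0720% to 0.134%, and 2426 barcodes under 1000 UMIs were left out. The shares did not overlap, and the difference of 4.74 percentage points had p = 0.0286 in a two-sided exact permutation test, the smallest that 4 against 4 libraries can give. Without thinning the shares were 5.59% and 0.140%.

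The next question was in which cells of the E12 retina these genes lay. Clusters were named "-like" from marker genes that exclude the cell cycle, which gave 8 classes at E12. The progenitor-like cluster (1304 cells, led by FABP7 and FGFBP3) and the neurogenic progenitor-like cluster (2924 cells, with OLIG2, PTF1A and NEUROG2 among its leading genes) held the highest sums of both gene groups. The summed mitosis genes stood at 5048 ± 401 CPM (SD, n = 4) in neurogenic progenitor-like and 3860 ± 248 CPM in progenitor-like cells, and their libraries did not overlap. They stood at 169 ± 63.2 CPM in horizontal-like, 98.8 CPM in Müller-like, 63.6 CPM in amacrine-like, 62.3 CPM in bipolar-like, 50.3 CPM in photoreceptor-like and 37.8 CPM in retinal ganglion cell (RGC)-like cells. The summed S-phase genes were at nearly the same level in both progenitor classes, at 1096 ± 48.8 and 1081 ± 89.1 CPM, and lower elsewhere, from 262 ± 20.1 CPM in Müller-like to 96.2 CPM in photoreceptor-like cells. These levels are described with no test, since clusters and levels come from the same cells.

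**Figure D2:**
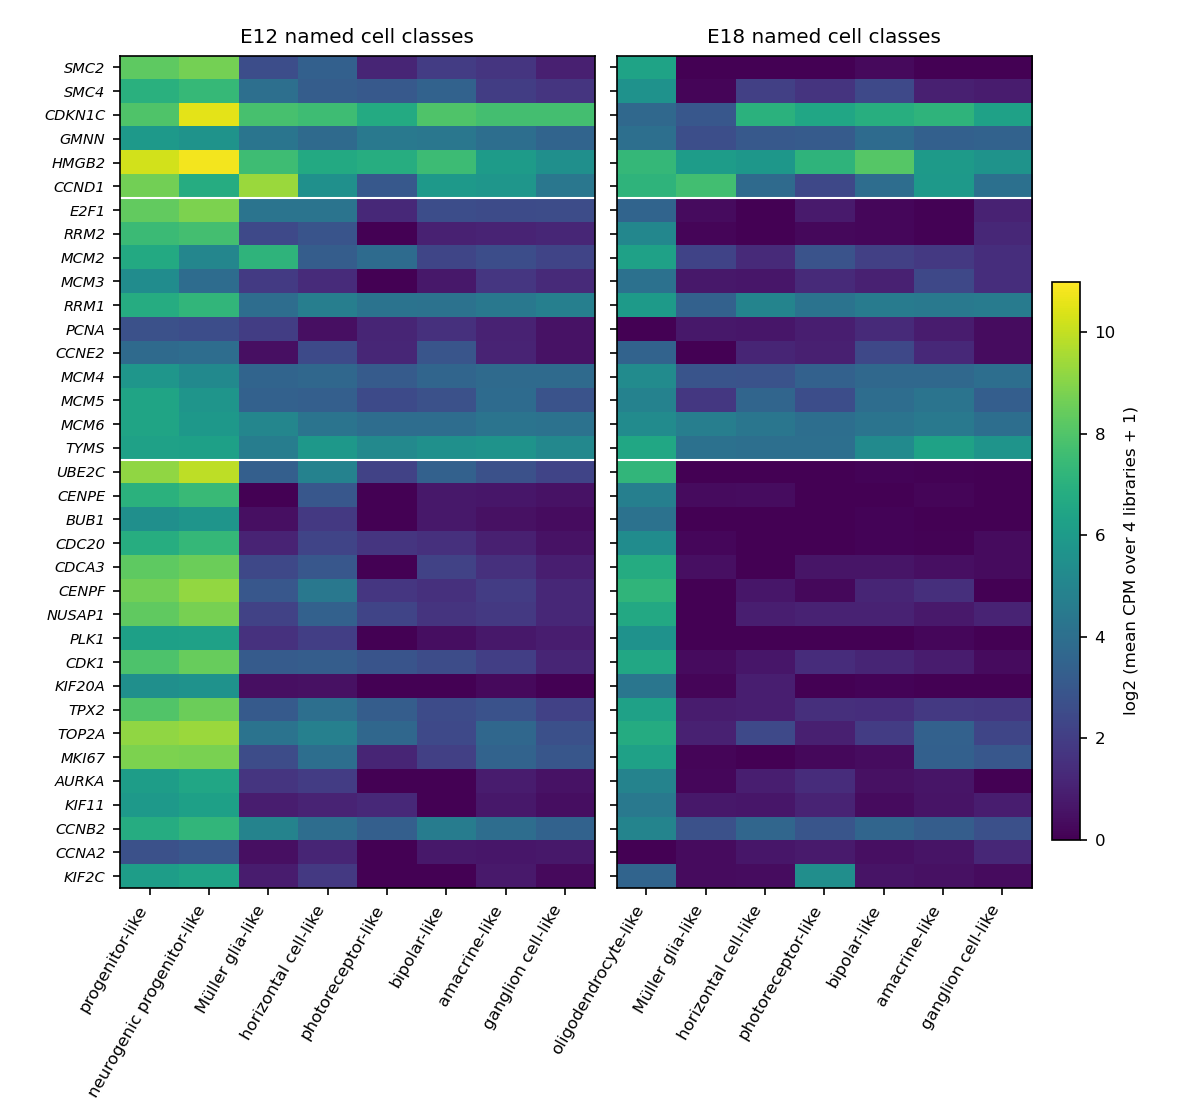
Mean level of each of the 35 genes over 4 libraries in each named class, as log2 of CPM plus 1, with E12 classes on the left and E18 classes on the right. At E12 the mitosis genes are highest in the progenitor-like and neurogenic progenitor-like columns, and at E18 most are highest in the oligodendrocyte-like column.

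Single genes divided the 2 progenitor classes. Of the 18 mitosis genes, 17 had their highest mean in neurogenic progenitor-like cells. The libraries of the 2 classes did not overlap for 8 of these and overlapped for 9. The share over all genes is not given, so nothing particular to mitosis genes is read from these counts. UBE2C had 1002, 942, 902 and 945 CPM in neurogenic progenitor-like and 480.2, 649, 589 and 593 CPM in progenitor-like cells, and the libraries did not overlap. MKI67 was the gene with its highest mean in the other class, at 448 ± 37.1 CPM in progenitor-like and 437 ± 52.3 CPM in neurogenic progenitor-like cells, which overlapped. Of the 11 S-phase genes, 6 were highest in progenitor-like cells (MCM3, MCM4, MCM5, MCM6, PCNA and TYMS) and 4 in neurogenic progenitor-like cells (E2F1, RRM1, RRM2 and CCNE2). The libraries of the 2 classes overlapped for 2 of the 6, PCNA and TYMS, and for 2 of the 4, RRM2 and CCNE2. No share over all genes is given for these counts either. MCM3 had 32.0, 48.4, 37.9 and 39.3 CPM in progenitor-like against 13.3, 8.35, 12.8 and 20.5 CPM in neurogenic progenitor-like cells, with no overlap. E2F1 had 452, 480.0, 422 and 456 CPM in neurogenic progenitor-like against 290.0, 368, 333 and 318 CPM in progenitor-like cells, again with no overlap.

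CDKN1C separated them most. It had 1498, 1399, 1575 and 1477 CPM in neurogenic progenitor-like and 222, 324, 204 and 253 CPM in progenitor-like cells. The level in progenitor-like cells was close to that in the neuronal classes, which ran from 106 CPM in photoreceptor-like to 248 CPM in bipolar-like cells. HMGB2 was also higher in neurogenic progenitor-like cells, at 1811 ± 124 against 1221 ± 94.8 CPM, as were SMC2 at 413 ± 26.4 against 311 ± 15.9 CPM and SMC4 at 162 ± 16.8 against 124 ± 19.0 CPM. GMNN was highest in progenitor-like cells, at 60.2 CPM.

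MCM2 and CCND1 did not follow the other genes. Both were highest in the E12 Müller-like cluster (1637 cells), which held 5 Müller and 11 progenitor markers. Its mean marker score was slightly higher for progenitors (3.04) than for Müller glia (3.02). The Müller name was given because SLC1A3 is among its leading genes, so the name does not set the cluster apart from progenitors. MCM2 had 129, 154, 144 and 142 CPM in Müller-like, 88.5, 100.4, 109.8 and 112 CPM in progenitor-like and 34.7, 24.2, 35.6 and 32.5 CPM in neurogenic progenitor-like cells. The 3 classes did not overlap. The share of cells with an MCM2 UMI after thinning was 13.7% in Müller-like, 10.9% in progenitor-like and 0.510% in amacrine-like cells, taken as background, and without thinning 20.2%, 14.5% and 0.817%. Median depths were 1487, 1490.5 and 1554 UMIs. CCND1 had 631, 649, 610.4 and 687 CPM in Müller-like, 409, 389, 375 and 430.2 CPM in progenitor-like and 115, 114, 100.3 and 112 CPM in neurogenic progenitor-like cells, with no overlap. The Müller-like cells nonetheless held few mitosis UMIs, and 9 of 1637 were mitosis-high without thinning (0.550%, 95% exact binomial interval 0.252% to 1.04%, which covers counting error only).

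Without thinning, 46.8% ± 2.18 of neurogenic progenitor-like and 45.7% ± 2.78 of progenitor-like cells were mitosis-high, and 43.2% and 39.9% with it. In the neuronal classes, 66 of 25468 amacrine-like (0.259%), 9 of 7133 RGC-like, 6 of 2227 bipolar-like and 2 of 497 photoreceptor-like cells passed. Horizontal-like cells had more, with 34 of 1750 (1.94%, interval 1.35% to 2.70%), 6 to 11 in each library, and 15 of them held at least 8 mitosis UMIs. These 34 cells held UMIs of a median of 5 different mitosis genes. Their summed horizontal cell markers were at 6177 CPM, with 1 of 12 at 0, against 10322 CPM in the 1605 horizontal-like cells with no mitosis UMI. Their summed neurogenic progenitor markers were at 1719 CPM, with 2 of 12 at 0, against 150 CPM. The median doublet score, the share of simulated doublets among a cell's neighbours, was 0.40 against 0.13. The part of doublets in this count was not tested. A further cluster, led by CENPF, NEUROG2 and UBE2C, was left unnamed because 32.3% of its barcodes were likely doublets, and 323 of its 1232 remaining cells held at least 8 mitosis UMIs.

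**Figure D3:**
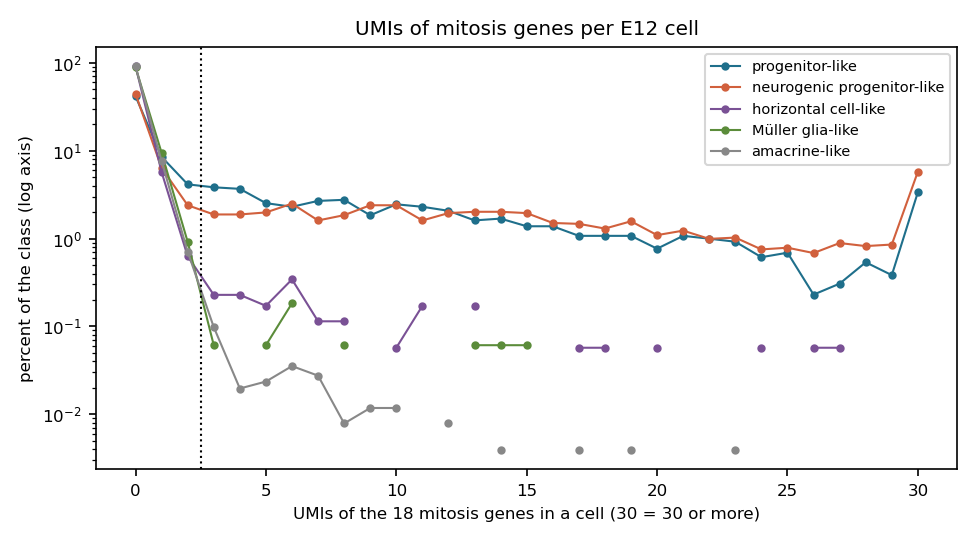
Share of the cells of 5 E12 classes, in percent, by the number of UMIs per cell summed over the 18 mitosis genes, with 30 standing for 30 or more and a dotted line at the threshold of 3. Progenitor-like and neurogenic progenitor-like cells reach far beyond the threshold, and 1.94% of horizontal-like cells lie past it.

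Neurogenic factors were compared between cells with many and with no UMIs of the cell cycle genes in the 2 progenitor classes, 4228 cells in all. Mitosis-high cells numbered 1963 (46.4% ± 1.48 of a library), S-high cells, with at least 3 UMIs of the 11 S-phase genes and fewer than 3 of the mitosis genes, 268 (6.37% ± 1.27), and low cells, with no UMI of either group, 1220. The other 777 cells lay between and were left out. An absence of these UMIs does not show that a low cell had left the cycle. These states are ranges of a count and not cell types, since 124 cells were 1 UMI below the mitosis threshold and 105 at it. Of the mitosis-high cells, 806 also held at least 3 S-phase UMIs. In S-high cells E2F1 had 482 UMIs, RRM2 200 and PCNA 5. The number of different S-phase genes per S-high cell is not given, and whether differences of this state follow E2F1 alone was not tested. Median depths were 1538, 1542 and 1372.5 UMIs, and the state sums per library held 788886 to 887983, 87750 to 144646 and 416858 to 485213 UMIs. The states differ in class, since S-high cells made up 11.8% of progenitor-like and 3.94% of neurogenic progenitor-like cells. Sums per library and state were compared with edgeR, with the library as a block, over 6511 genes, and the 29 genes that define the states were left out.

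The proneural gene NEUROG2 and the Notch ligand DLL1 were higher in the mitosis-high and S-high states than in low cells. These states are called the dividing states as a label only, since their cells need not all be dividing. Of 20 neurogenic factors tested, 5 were higher and 2 lower in mitosis-high than in low cells, where 9.72% of all genes were higher and 3.70% lower. In S-high against low cells the counts were 5 higher and 3 lower, against 6.11% and 3.47% of all genes (9.58% in either direction). Over the 20, the medians were -0.11 and 0.01. NEUROG2, a proneural transcription factor, had 634, 746, 740.3 and 858 CPM in mitosis-high, 1299, 892, 605 and 870.1 CPM in S-high and 321, 432, 319 and 336 CPM in low cells. It was higher by 1.11 ± 0.077 (log2, SE; adjusted p = 2.85e-34) in mitosis-high and by 1.39 ± 0.11 (log2, SE; adjusted p = 5.12e-28) in S-high cells. Both dividing states lay above every low library and overlapped each other. With states set after thinning, NEUROG2 and HES6 missed the 2-fold limit between mitosis-high and low cells, at 0.98 and 0.97.

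DLL1 and HES6 were highest in S-high cells. DLL1 had 208, 275, 255 and 183 CPM in mitosis-high, 638, 615, 766 and 589 CPM in S-high and 86.4, 56.3, 88.3 and 45.3 CPM in low cells. HES6, which promotes neuronal differentiation, had 145, 159, 166 and 175 CPM, 410.3, 449, 494 and 413 CPM and 55.2, 70.4, 106 and 47.4 CPM in that order. The 3 states did not overlap for either gene. Between the dividing states, DLL1 was lower in mitosis-high cells by 1.49 ± 0.12 (log2, SE; adjusted p = 4.08e-27) and HES6 by 1.46 ± 0.14 (log2, SE; adjusted p = 9.66e-20). In that contrast 5 of 20 neurogenic factors were lower and 1 was higher, where 1.51% of all genes were lower and 4.56% higher (6.07% in either direction). GADD45G, a growth arrest gene, shared this order, with means of 22.7, 83.1 and 17.3 CPM. FOXN4, a factor of amacrine and horizontal cell genesis in the mouse, was the 1 that was higher in mitosis-high cells. It had 85.6, 77.7, 67.2 and 93.8 CPM in mitosis-high, 34.2, 27.7, 20.2 and 8.79 CPM in S-high and 4.80, 14.1, 2.26 and 10.3 CPM in low cells.

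Other neurogenic factors were highest in low cells. PTF1A, which directs amacrine and horizontal fates, had 38.6, 46.2, 22.8 and 18.8 CPM in mitosis-high, 0, 89.9, 80.6 and 290.0 CPM in S-high and 950.0, 983, 1437 and 793 CPM in low cells. It was lower by 4.97 on the log2 scale in mitosis-high and by 3.05 in S-high than in low cells. Its S-high libraries ran from 0 to 290 CPM and rest on few cells. NEUROG1 had means of 31.7, 86.8 and 79.4 CPM in mitosis-high, S-high and low cells, and the mitosis-high level was lower than both others. NEUROD1, at 56.7, 36.2 and 83.3 CPM, and OTX2, at 1186, 839 and 1725 CPM, were lower in S-high than in low cells, by 1.16 and 1.007, just past the 2-fold limit. The NEUROD1 call was lost without E12 library 1 (-1.002) or 4 (-0.92), at a threshold of 2 UMIs (-0.96) and in neurogenic progenitor-like cells alone (-1.11). The OTX2 call was lost with DESeq2 (-0.995) or its size factors, without library 2 or 3, at thresholds of 2 and 5 UMIs, after thinning (-0.76), with the unnamed neurogenic cluster added and in neurogenic progenitor-like cells alone (-0.49).

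Shares of cells followed the same order. After thinning, a DLL1 UMI was found in 16.6% of mitosis-high, 34.8% of S-high and 4.16% of low cells, against 1.59% of amacrine-like and 0.308% of RGC-like cells, the background classes with median depths of 1554 and 2358 UMIs. Without thinning the shares were 25.5%, 45.3% and 5.11%. The thinned shares with a HES6 UMI were 12.7%, 26.3% and 5.37%, and unthinned 19.1%, 35.3% and 7.85%, with background of 0.511% and 0.253%. A PTF1A UMI was present in 1.52%, 2.44% and 24.9% after thinning and in 2.03%, 3.21% and 26.7% without, against 0.561% of RGC-like cells. Amacrine-like cells, which can use PTF1A, had 1.75%.

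Part of these differences lay between the 2 classes. Within neurogenic progenitor-like cells alone, DLL1 was higher by 3.56 in mitosis-high and by 4.94 in S-high than in low cells. Within progenitor-like cells alone it was lower by 1.06 in mitosis-high (edgeR, adjusted p = 0.000211) and higher by 1.07 in S-high cells, and lower by 2.12 in mitosis-high than in S-high cells. HES6 was higher by 2.02 in S-high progenitor-like cells, with a mitosis-high difference of 0.15. NEUROG2 was higher by 1.29 in S-high progenitor-like cells, with a mitosis-high difference of -0.19. Thus in both classes DLL1 and HES6 were higher in S-high than in mitosis-high cells, whereas the call of DLL1 against low cells turned its direction with the class.

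Of 12 progenitor genes tested, 2 were higher and 1 lower in mitosis-high than in low cells, where 9.72% and 3.70% of all genes were, and 1 was higher in S-high than in low cells, where 6.11% of all genes were. SOX2 had means of 58.3, 47.2 and 23.0 CPM in mitosis-high, S-high and low cells. NOTCH1, the receptor of DLL1, had means of 635, 443 and 280 CPM. FGFBP3, an FGF-binding protein, had means of 187, 311 and 105 CPM, and was higher in S-high than in low cells by 1.59. Within progenitor-like cells alone the differences were 0.55 for NOTCH1 in mitosis-high and -0.12 for FGFBP3 in S-high cells.

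The 6 genes that define no state had orders of their own. HMGB2 had 3072, 2895, 2889 and 2860.1 CPM in mitosis-high, 456, 463, 464 and 448 CPM in S-high and 338, 263, 342 and 328 CPM in low cells, so that the 3 states did not overlap. The difference between S-high and low cells was 0.57, under the 2-fold limit, and 1.17 with states set after thinning, which was called. SMC2 had 2457, 57 and 3 UMIs in the 3 states. That is a ratio of 438 between the CPM of mitosis-high and low cells, with a counting interval of 150 to 2128, and SMC4 had means of 280, 92.2 and 11.2 CPM. CCND1 had 151, 151, 138 and 146 CPM in mitosis-high, 569.8, 532, 484 and 598 CPM in S-high and 170.3, 124, 152 and 144 CPM in low cells. It was higher in S-high cells than in both other states, which overlapped. Within progenitor-like cells alone CCND1 was lower in mitosis-high than in low cells by 1.197 and differed by 0.36 between S-high and low cells. CDKN1C had 591, 553, 501 and 538 CPM in mitosis-high, 422, 470.1, 232 and 466 CPM in S-high and 1794, 2020.0, 2107 and 1910.5 CPM in low cells. The low cells were above both dividing states, by 1.82 and 2.24 on the log2 scale. Within progenitor-like cells alone the CDKN1C differences were -0.71 and 0.0012. GMNN had means of 78.7, 92.0 and 11.95 CPM, so that it was higher in both dividing states.

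**Figure D4:**
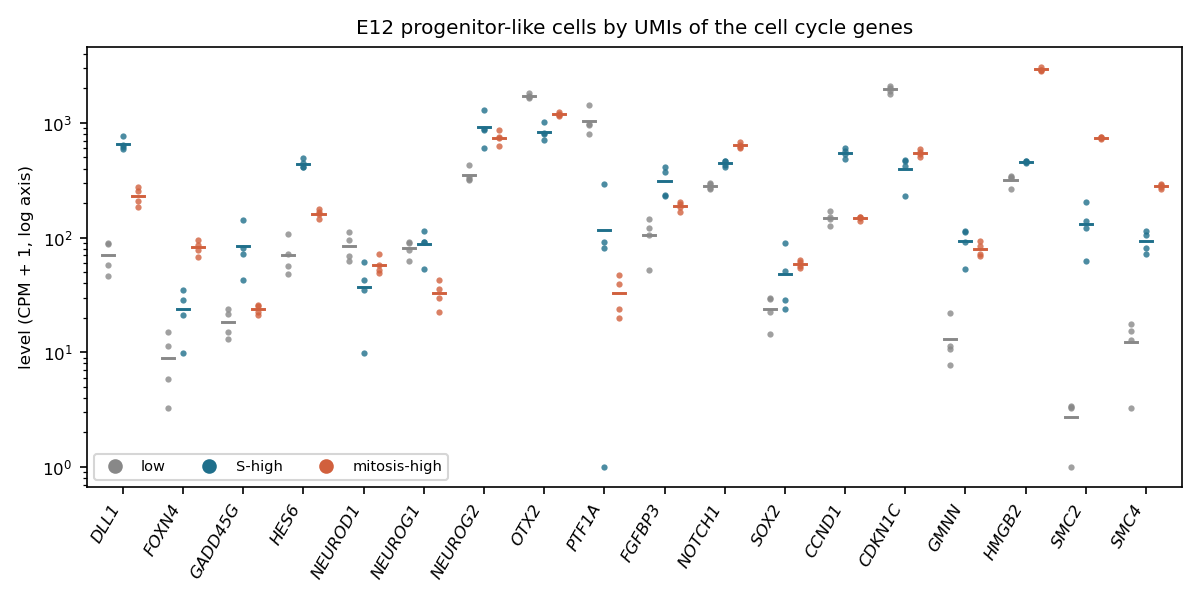
Level of called neurogenic factors and progenitor genes named here and of the genes that define no state, in CPM plus 1 on a log axis, in low, S-high and mitosis-high cells of the 2 E12 progenitor classes, with 4 libraries as points and their mean as a bar. DLL1, HES6 and CCND1 are highest in S-high cells, HMGB2 and FOXN4 in mitosis-high cells, and PTF1A and CDKN1C in low cells.

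Further genes of the cycle were set against shares over all genes of 9.72% higher and 3.70% lower in mitosis-high than in low cells, 6.11% and 3.47% in S-high than in low cells, and 4.56% and 1.51% in mitosis-high than in S-high cells. Of 42 other replication genes, 38 were higher in mitosis-high and 38 in S-high than in low cells, with medians of 3.06 and 2.92 (2.76 with genes at 0 in low cells set to their bound), and 3 were higher and 3 lower between mitosis-high and S-high cells. CDC45 had no UMI in low cells, and was at least 30.9-fold higher in mitosis-high and at least 13.3-fold higher in S-high cells, against a floor of 3 counts over the group. CDC6, which loads the MCM helicase, was at least 39.7-fold higher in S-high than in low cells and lower in mitosis-high than in S-high cells by 1.68. For TK1 and EXO1 the rise from low to mitosis-high cells was at least 16.2-fold and at least 23.2-fold. Of 68 other mitosis genes, 67 were higher in mitosis-high and 41 in S-high than in low cells, and 59 were higher and 1 lower in mitosis-high than in S-high cells. The 1 that was lower was CDCA7, by 2.08, a gene placed with mitosis by its name that is known as a MYC and E2F target. ANLN, NCAPD3 and NEK2 had no UMI in low cells, and their lower bounds in mitosis-high cells were 62.6-fold, 53.7-fold and 63.7-fold. The 4 replication and 5 mitosis genes with no UMI in low cells passed the filter on low counts through the dividing states alone. They are part of the counts given here, but nothing is read from their calls against low cells. Of 23 G1 regulators and inhibitors, 8 were higher and 1 lower in mitosis-high than in low cells, 7 and 2 in S-high than in low cells, and 3 and 2 between the dividing states. CDKN2C, the inhibitor p18, was higher in mitosis-high than in low cells by 4.71, with a mean of 353 against 13.4 CPM. CCND2 and MYCN were lower in mitosis-high than in S-high cells, by 1.36 and 1.37.

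To ask whether cells of one class also changed with stage, each class present at both stages was compared by its library sums. Few of the 35 genes had enough UMIs to be tested, from 6 in photoreceptor-like to 21 in amacrine-like cells, so that the counts of calls depend on the filter and are not ranked between classes. Clusters were made within each stage, so the cells of a class need not match between stages. In Müller-like cells 9 of 13 genes tested were lower and none higher by edgeR, where 12.2% of all genes were lower and 16.4% higher. The E12 cluster held 11 progenitor markers beside 5 Müller markers, and at E18 the unnamed cluster of 2025 cells, which held 7 Müller markers, was not part of the class. A change within one kind of cell is thus not shown. Median depths differed there, at 1487 UMIs per cell at E12 and 5040.5 at E18. MCM2 had 129, 154, 144 and 142 CPM at E12 and 2.503, 5.08, 4.28 and 2.46 CPM at E18, lower by 5.01. CDKN1C had 219, 223, 204 and 230.1 CPM and 10.0, 7.62, 5.88 and 3.94 CPM, lower by 4.71. CCND1 had 631, 649, 610.4 and 687 CPM and 195, 208, 209 and 208 CPM, lower by 1.38. No stages overlapped, and CCND1 alone kept a high level at E18. TOP2A went from 17.3 to 1.03 CPM, HMGB2 from 191 to 66.5 CPM, and CCNB2 and GMNN were lower by 2.14 and 1.51. SMC4 had 41 UMIs at E12 and 1 at E18, a ratio of 122 with a counting interval of 20.7 to 4928, and E2F1 had 47 and 2, a ratio of 69.8 with an interval of 18.3 to 594. Both passed the filter on low counts through E12 alone, as did MCM2 and TOP2A. Nothing is read from the calls of these genes, and only their levels are given.

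In amacrine-like cells 7 of 21 genes tested were lower, where 7.66% of all genes were, and 0 were higher by edgeR, where 12.2% were. E2F1 had 202 UMIs at E12 and 1 at E18, a ratio of 93.7 with a counting interval of 16.6 to 3718, and UBE2C had 240 and 1, a ratio of 111 with an interval of 19.8 to 4414. These genes too passed the filter through E12 alone, and nothing is read from their calls. CDK1, NUSAP1, SMC4, TPX2 and MCM2 were lower by 2.22, 2.15, 1.84, 1.397 and 1.16. MCM2 was not called with library totals, at -0.96. In RGC-like cells 3 of 13 were lower, where 7.78% of all genes were, namely E2F1 by 2.26, CDKN1C by 1.57, from 207 to 77.9 CPM, and CCNB2 by 1.013. E2F1 stood at 1.10 CPM in RGC-like cells at E18 and passed the filter through E12 alone, so nothing is read from its call. CCNB2 was not called there with library totals (-0.86) or without E18 library 3 (-0.97) or 4 (-0.90). In horizontal-like cells 4 of 9 were lower (2 to 22 under the alternatives run), where 11.3% of all genes were and 22.4% changed in either direction. They were TYMS, which went from 57.9 ± 9.31 to 15.03 ± 5.58 CPM, CCND1, from 45.1 to 12.9 CPM, TOP2A, from 26.8 to 4.41 CPM, and E2F1. E2F1 had 17.7 CPM at E12 and no UMI at E18. It passed the filter on low counts through E12 alone, as did TOP2A, so nothing is read from either call. In bipolar-like cells 4 of 12 were lower, where 8.23% of all genes were and 22.0% changed in either direction: CCND1, from 58.8 to 14.2 CPM, CDKN1C, from 248 to 118 CPM, CCNB2, from 23.8 to 10.9 CPM, and SMC4, with overlapping libraries and no call without E12 library 1 (-0.90). MCM5 was the 1 higher gene there, from 5.65 to 14.1 CPM, where 13.7% of all genes were higher. In photoreceptor-like cells TYMS was lower, from 34.9 to 15.3 CPM with overlapping libraries, where 10.8% of all genes were lower, and KIF2C was called higher, where 16.8% were (27.6% in either direction). KIF2C had no UMI in these cells at E12 and passed the filter on low counts through E18 alone, so nothing is read from its call.

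At E18 no cluster was named progenitor-like, and the oligodendrocyte-like cluster (147 cells, led by BCAS1, PMP2, BCAN and OLIG2) held the highest level of 29 of the 35 genes among the 7 named classes. Its libraries overlapped those of the second class for 7 of the 10 S-phase genes among them, 3 of the 16 mitosis genes and 1 of the 3 others. The cluster held 386686 UMIs, against 19624953 in amacrine-like cells, so its levels of scarce genes are noisy. The share over all genes is not given, so nothing particular to the 35 genes is read from these counts. Its summed mitosis genes stood at 1400, 669, 693 and 1628 CPM in the 4 libraries, against 58.3 ± 2.32 CPM in photoreceptor-like, 36.0 CPM in amacrine-like and 9.89 CPM in Müller-like cells. Its summed S-phase genes stood at 410 ± 71.3 CPM, against 161 CPM in amacrine-like cells. In all, 26 genes reached 20 CPM and 2-fold over the median class in some E18 class. Of the 26, 23 were highest in oligodendrocyte-like cells, where they rest on 8 to 56 UMIs per gene over the 147 cells.

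Among the mitosis genes in oligodendrocyte-like cells, UBE2C had 302, 49.2, 29.3 and 212 CPM, CENPF 194, 88.5, 117 and 189.6 CPM and TOP2A 140.0, 39.3, 97.6 and 156 CPM in libraries 1 to 4. CDCA3 had 96.9, 68.8, 48.8 and 212 CPM, NUSAP1 64.6, 88.5, 58.5 and 178 CPM and CDK1 96.9, 29.5, 87.8 and 167 CPM. Libraries 1 and 4 were above libraries 2 and 3 for UBE2C, CENPF, TOP2A, CDCA3 and CDK1. The same held for TPX2, PLK1, CDC20 and AURKA, and not for NUSAP1, MKI67, CCNB2, CENPE and KIF11. MKI67 had 53.8, 59.0, 87.8 and 112 CPM, TPX2 140.0, 39.3, 48.8 and 78.1 CPM and PLK1 64.6, 29.5, 19.5 and 78.1 CPM. CDC20 had 108, 19.7, 9.76 and 22.3 CPM, CCNB2 10.8, 49.2, 39.0 and 22.3 CPM and AURKA 43.1, 19.7, 9.76 and 44.6 CPM. CENPE had 43.1, 39.3, 9.76 and 11.2 CPM and KIF11 10.8, 39.3, 9.76 and 22.3 CPM. All 14 had UMIs in each of the 4 libraries, whereas CCNA2 had none.

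Of the S-phase genes there, MCM2 had 53.8, 98.3, 68.3 and 89.2 CPM, MCM4 21.5, 39.3, 39.0 and 55.8 CPM, MCM5 10.8, 29.5, 39.0 and 33.5 CPM and MCM6 21.5, 49.2, 29.3 and 55.8 CPM. RRM1 had 75.4, 49.2, 48.8 and 78.1 CPM, RRM2 10.8, 29.5, 68.3 and 22.3 CPM and TYMS 96.9, 167, 78.1 and 33.5 CPM. PCNA had no UMI. The condensin genes were present too, with SMC2 at 108, 39.3, 39.0 and 145 CPM and SMC4 at 43.1, 39.3, 39.0 and 66.9 CPM. CDKN1C was at 12.3 CPM, against 142 ± 11.9 CPM in amacrine-like cells, its highest E18 class.

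Cells that held many mitosis UMIs at E18 were few and lay in 2 clusters. Of 28217 cells, 41 had at least 3 mitosis UMIs without thinning, and 24 had at least 8. The oligodendrocyte-like cluster held 15 of the 41, 3, 3, 4 and 5 in the libraries, which is 10.2% of its cells (exact binomial interval 5.83% to 16.3%; 8.28% with thinning), and 13 of them had at least 8. All 15 had OLIG2 UMIs, 276 in all, 11 had UMIs of NKX2-2 and 10 of BCAS1. SOX10 and CNP had UMIs in 6 cells each and MBP in 3. OLIG2, which is also on the neurogenic progenitor list, alone stood at 6385 CPM in these 15 cells. Their summed oligodendrocyte markers were at 8560 CPM, against 17389 CPM in the 123 cells of the cluster with no mitosis UMI. They held UMIs of a median of 11 of the 18 mitosis genes, against 7 in the E12 mitosis-high progenitor cells. These numbers were taken without thinning and depend on depth. The median was 2568 UMIs in the whole oligodendrocyte-like cluster and 1538 in those E12 cells, so no difference is read from them. Further markers were seen in the 15 cells. Genes of the progenitor list were present too, with 199 UMIs of FABP7 in 15 cells, 68 of SIX6 in 14, 25 of SOX8 in 10 and 23 of FGFBP3 in 9. Of the same list, NOTCH1 had 13 UMIs, SOX2 6, HES1 3 and SFRP1 1, and SOX9, HES5, LHX2, FGF19 and SOX3 had 0.

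The other 15, 4, 2, 5 and 4 in the libraries, lay in a cluster of 2025 cells led by TF and NOTCH1, which was left unnamed. Of these, 11 had at least 8 mitosis UMIs, and the median was 8 different mitosis genes. They differed from their own cluster in the markers they held, a comparison made after their values were seen. Their summed Müller markers were at 1022 CPM, with 4 of 8 at 0, against 28516 CPM in the 1940 cells with no mitosis UMI. Their summed neurogenic progenitor markers were at 3596 CPM against 94.3 CPM, and their progenitor markers at 4945 CPM against 5225 CPM. By gene, there were 23 UMIs of NEUROG2 in 6 of the 15 cells and 16 of NEUROD4 in 6. DLL1 had 11 UMIs in 7 cells and INSM1 11 in 4. Of the same list, OLIG2 had 10 UMIs, DLL4 7, HES6 4 and FOXN4 1, and ATOH7, NEUROG1 and GADD45G had 0. There were none of SOX10 or BCAS1. Their median doublet score was 0. Outside both clusters, 11 of 26045 cells had at least 3 mitosis UMIs and none had 8. No such cell was found among 1524 Müller-like, 10457 bipolar-like or 1851 horizontal-like cells, which allows shares of up to 0.197%, 0.0287% and 0.162%.

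Some genes had a high level in single neuronal clusters at E18. These clusters were chosen after their values were seen, and no test was made. KIF2C was the clearest. It had 49.4, 39.5, 39.5 and 39.8 CPM in E18 photoreceptor-like cells. The 497 E12 ones held no UMI of it, and no difference between the stages is read from this. In the cluster led by OPN1LW, the red opsin, and STBD1, it had 139, 117, 107 and 116 CPM, 214 of the 228 UMIs. In that cluster 13.1% of 1450 cells had a KIF2C UMI (10.8% with thinning), against 0.131% of Müller-like cells (0.0656% with thinning), with median depths of 1173.5 UMIs for photoreceptor-like and 5040.5 for Müller-like cells. MKI67, UBE2C, CENPF, BUB1, CDC20 and PLK1 had no UMI there, AURKA had 6 and TOP2A 1. In the RefSeq annotation of assembly GRCg7b the KIF2C gene overlaps C1orf228, and whether reads of one were counted for the other was not tested.

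MKI67 had 148, 216, 179.97 and 159 CPM in an amacrine-like cluster of 93 cells led by FOXP4L and FOXP1. That is 53 UMIs in 43.0% of the cells (13.2% with thinning, median depth 2945 UMIs), against 0.0656% of Müller-like cells (0 of 1524 with thinning). TOP2A had 1 UMI in this cluster and the other 16 mitosis genes none. Of the 8 amacrine-like cells with at least 3 mitosis UMIs, 6 held a single mitosis gene, and MKI67 made up 62.5% of their mitosis UMIs. TOP2A alone was likewise high in a cluster led by UTS2B, with 61.2, 93.3, 38.6 and 33.8 CPM.

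CCND1 and CDKN1C each marked a few neuronal clusters at E18. CCND1 had 595, 625, 579.7 and 507 CPM in the amacrine-like cluster of 289 cells led by SLC10A4 and SLC5A7, the choline transporter of cholinergic neurons. There 77.5% of cells had a CCND1 UMI (41.4% with thinning), more than the 57.0% of Müller-like cells (16.7% with thinning), the class with its highest mean, and than the 0.528% of photoreceptor-like cells (0.495% with thinning). Over libraries, Müller-like cells had 195, 208, 209 and 208 CPM. CDKN1C had 1462, 1627, 1052 and 1312 CPM in an amacrine-like cluster of 115 cells led by CBLN4 and VCAN, near its level in E12 neurogenic progenitor-like cells, and the median of all E18 clusters was 100.04 CPM. HMGB2 had 469.9, 512, 446 and 479 CPM in a bipolar-like cluster of 1115 cells led by ANGPT2, against a median of 86.8 CPM over clusters, and 263, 284, 272 and 283 CPM in the bipolar-like class as a whole. Replication genes also had single high clusters, with MCM3 at 73.6, 51.5, 44.5 and 20.8 CPM in an amacrine-like cluster led by NEUROD6 and PVALB, and MCM5 at 38.9, 111, 56.2 and 45.3 CPM in one led by TAC1 and CBLN4. TYMS had 215, 151, 143 and 223 CPM in an unnamed cluster of 45 cells led by SFTPA2 and TAC1.

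**Figure D5:**
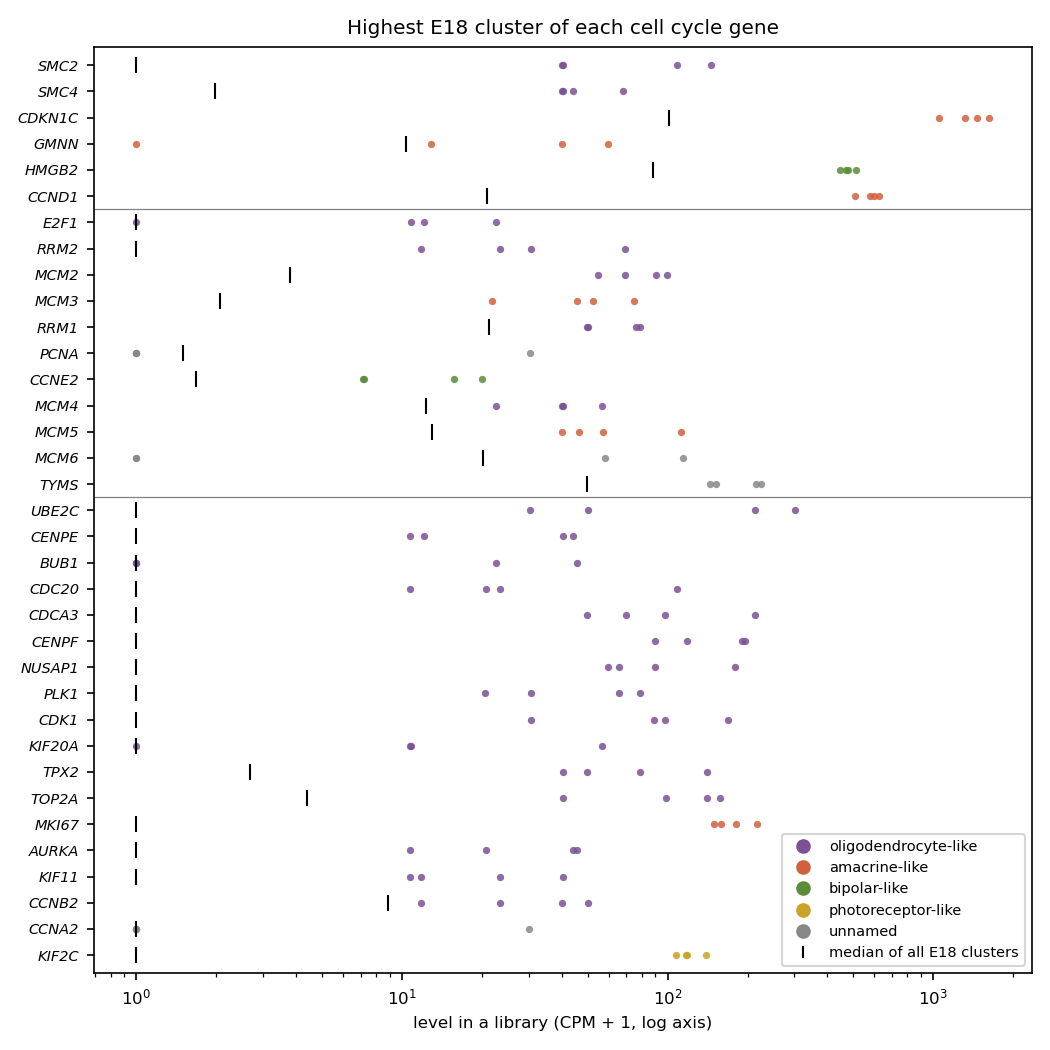
Level of each of the 35 genes in the E18 cluster where it was highest, among clusters of at least 40 cells, in CPM plus 1 on a log axis, with 4 libraries as points coloured by the class of that cluster and the median of all E18 clusters as a tick. Most mitosis genes peak in the oligodendrocyte-like cluster, whereas KIF2C, MKI67, CCND1, CDKN1C and HMGB2 peak in photoreceptor-like, amacrine-like or bipolar-like clusters.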

How the data were processed

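The deposited files hold UMI counts per gene and barcode, which the authors made with Cell Ranger 2.1.0 on GRCg6a, per the submitters' processing notes, and which carry no further normalization. Barcode filters and the use of strand in counting are not given in the sources used here. The 35 genes, the gene lists and the marker lists were chosen with earlier results of these data known. Barcodes of E12 and E18 were scored for doublets within each library (30 components, 15 neighbours, the highest 0.8% per 1000 barcodes set aside), and 25 and 1 erythrocyte barcodes were left out, which left 50186 and 28217 cells. Each stage was clustered on its own by the Leiden method, with all barcodes, so that likely doublets took part in forming the clusters. The settings were counts scaled to 10000, 2000 variable genes, 40 components, 20 neighbours and resolution 1, without 283 cell cycle genes. This gave 35 and 68 clusters, which were named from marker lists. The E16 tables were not used here.

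UMIs were summed per library, per library and class, or per library and state, and tested with edgeR (TMM, filterByExpr, Benjamini-Hochberg over all genes tested, called at an adjusted p under 0.05 and at least 2-fold). The tests were checked on simulated data. Shares used cells thinned to 1000 UMIs. Intervals are at 95% and cover counting error only, and a count of 0 was read against a floor of 3 counts over the group. Values in every library are given for genes called between the stages and for genes that reach 20 CPM and 2-fold over the median class at E18. From the lists, the neurogenic factors and progenitor genes called between states are named, with up to 3 genes per other list and direction. Some genes that this rule names are counted but not reported here by name. Replicates of a stage differed by a chi-square of 1.59 to 4.90 per degree of freedom, so none was counted as a repeat of another. The labels number libraries 1 to 4 at both stages, and same-numbered libraries had correlations of -0.19, 0.079, -0.027 and -0.35 over 8862 genes, so the numbers were not taken to pair them. RefSeq (GRCg7b) listed 33 of the 35 genes, 32 by symbol, and no sequence is printed. The genes of KIF2C, TYMS, CCNE2, CCNB2, KIF20A, CDC20, SMC2 and SMC4 overlap a protein-coding gene there and those of MCM4, MCM6 and BUB1 a long non-coding RNA, so their counts are uncertain to that extent. Alternatives were DESeq2, other scalings, no filter on low counts, each library left out, other thresholds, doublets kept, clusters made with all genes, and cells of a single class. The versions were R 4.3.3, edgeR 4.0.16, limma 3.58.1, DESeq2 1.42.0, matplotlib 3.10.9, leidenalg 0.10.2 (with igraph 0.11.9), scikit-learn 1.9.0, pandas 2.3.3, scipy 1.17.1, numpy 2.4.6 and Python 3.11.15.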

Additional observations from a re-analysis of the deposited data

Results flagged for a closer look

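In 4 of the 70 sets of 4 libraries, 1 library stood apart from the others of its stage in the level of a gene, and chance alone sets apart about 5% of such sets. For MCM4 at E18, library 4 had 12.1 CPM, against 10.6 to 10.8 CPM in the others. For CDK1 at E12, library 1 had 33.3 CPM, against 29.5 to 30.1 CPM. For CDCA3 at E18, library 4 had 2.30 CPM, against 1.08 to 1.14 CPM. For SMC4 at E18, library 3 had 2.62 CPM, against 2.16 to 2.22 CPM.

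Between E12 and E18 the libraries of 2 genes moved in opposite ways in different classes, and these differences were not tested. TYMS had a log2 difference of 0.49 in amacrine-like and -2.06 in horizontal-like cells, which are 2.55 apart. HMGB2 had a log2 difference of 0.50 in bipolar-like and -1.25 in Müller-like cells, which are 1.74 apart.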

How the results depend on the processing

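Over whole libraries, 23 to 27 of the 35 genes were called lower under every alternative run and 0 higher, and 26 with a replicate block, although same-numbered libraries did not pair. Leaving out a library put the count at 25 to 27 and the difference in mitosis-high cells at 4.68 to 4.83 percentage points, where 3 against 4 libraries cannot give a p below 0.0571. Counts within classes moved more, since they depend on how many genes are tested. With no filter on low counts, the genes called lower were 6 of 31 tested in photoreceptor-like, 22 of 35 in horizontal-like and 12 of 35 in bipolar-like cells. They were 16 of 35 in amacrine-like, 7 of 34 in RGC-like and 21 of 35 in Müller-like cells. Among all genes, 873 of 15693, 1587 of 15702, 970 of 17285, 1386 of 18911, 1176 of 17378 and 1562 of 16229 were lower, in that order. With doublets kept, 10 of 15 genes of the 35 tested were lower in horizontal-like, 13 of 26 in amacrine-like and 5 of 15 in RGC-like cells. Among all genes, 916 of 8334, 971 of 12450 and 817 of 10509 were lower there. With clusters made on all genes, 2 of 6 were lower in horizontal-like cells, against 885 of 7846 among all genes. Leaving out a library gave 0 to 4, 4 to 8, 3 to 8, 6 to 12 and 1 to 4 lower in photoreceptor-, horizontal-, bipolar-, amacrine- and RGC-like cells. Among all genes the lowest and highest counts were 507 of 4024 and 869 of 9017, 934 of 8215 and 995 of 8006, 635 of 8387 and 911 of 10831, 864 of 11752 and 1104 of 12832, and 589 of 8532 and 939 of 11120. In photoreceptor-like cells 0 to 1 were higher, and only 2 of the 35 were tested there without an E18 library.

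Between states, restriction to progenitor-like cells left 10 neurogenic factors tested. Of these, 0 were higher and 1 lower in mitosis-high than in low cells, 0 lower in S-high than in low cells, and 0 higher in mitosis-high than in S-high cells. Among all 1635 genes tested there, 131 were higher and 20 lower in mitosis-high than in low cells. The counts over all genes were 78 and 14 for S-high against low cells, and 69 and 20 for mitosis-high against S-high cells. Of 5 tested genes that define no state, 2 were higher and 0 lower in S-high than in low cells. There the differences between mitosis-high and low cells reversed for NEUROG2 (-0.19) and DLL1 (-1.06), and those between S-high and low cells for OTX2 (0.70), FGFBP3 (-0.12) and CDKN1C (0.0012). Neurogenic factors lower in S-high than in low cells numbered 1 of 19 tested at a threshold of 2 UMIs, where 165 of all 6480 genes were. They numbered 1 of 19 in neurogenic progenitor-like cells alone, where 141 of 5881 were. Those higher in mitosis-high than in S-high cells numbered 2 of 23 with no filter, 2 of 19 at 2 UMIs and 2 of 20 after thinning. Among all genes, 393 of 15396, 341 of 6480 and 287 of 7126 were higher, in that order. With a library left out, 1 to 2 neurogenic factors were higher, where 274 of 6580 to 299 of 6677 of all genes were. PTF1A reversed to 6.71 between mitosis-high and S-high cells after thinning, and was at -0.80 without E12 library 4. The causes were not tested. Depth limits the values in E18 oligodendrocyte-like cells, which rest on few UMIs per gene.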
